A study of Rattus norvegicus with 35 samples.

Results

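The genes described here encode enzymes and regulators of cholesterol and fatty acid synthesis. They are 35 rat genes taken by name from known pathway membership, out of 17198 genes in the deposited count table. The rule uses no measured value, but the list was drawn up with earlier results of these data known. All 35 were matched to a record of the table by RefSeq identifier, 1 record each, and all 35 had at least 1 read in a cell. They comprise 7 enzymes of the mevalonate pathway, 11 enzymes of sterol synthesis, 12 enzymes of fatty acid synthesis, modification and activation, 4 regulators and 1 sterol carrier.

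The libraries came from rat converted hypoblast stem cells, which were derived from rat embryonic stem cells cultured with LIF, PDGF, EGF and fetal bovine serum and collected after 12 days of differentiation. There were 34 single-cell libraries made on a C1 microfluidic system, and 1 library of the bulk population as the reference. All of them share the cell type, the medium and the day. The strain, the clone and the number of cultures were not known from the labels. Each of the groups therefore counted as a single sample, and no test between them exists. SDs below describe the spread between cells, not between cultures.

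Cholesterol is built from acetyl-CoA through mevalonate, isoprenoid units and squalene, which is closed into a ring and trimmed to cholesterol. Fatty acids are built from the same precursor by acetyl-CoA carboxylase and fatty acid synthase and are then elongated and desaturated. When sterols run low, INSIG proteins release the SCAP-SREBP complex from the endoplasmic reticulum, and the cleaved SREBP factors switch on genes of both routes, with SREBP-2 acting mainly on sterol genes and SREBP-1c mainly on fatty acid genes.

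Libraries of single cells held 6288 to 503044 reads (median 266046), against 47121 for bulk. Levels are given as CPM, the reads of a gene scaled by the total of its library. A single read was worth 1.99 to 159 CPM in a cell and 21.2 CPM in the bulk library, so most bulk values rest on few reads: 30 of the 35 genes had fewer than 10 bulk reads. In bulk, fewer cells that express a gene and less RNA per cell cannot be told apart. Detection in a cell means at least 5 CPM. Transcript lengths were not used here, so a level or a share of cells is compared between libraries for 1 gene and not between genes. Of 11 hypoblast markers, 10 were detected in at least 17 cells, the exception being Sox7 (12 cells). Of 9 fibroblast markers, none was detected in 17 cells and 2 were detected in none, while 4 cells (C14, C17, C30 and C46) held Col1a2. None of 5 pluripotency and 6 trophoblast markers reached 17 cells, and of 6 visceral endoderm markers only Cubn did (20 cells). The summed fibroblast level was 0 to 3531 CPM in the cells (median 0), against 2101 CPM in bulk. The cells fell into 22 with at least 3307 genes with a read and 12 with at most 2777. These are called gene-rich and gene-poor below, with a limit of 3000 genes.

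Genes of both routes were detected in many of the cells. At least 17 of the 34 cells held 17 of the 35 genes (48.6%), against a background of 27.3% of the 10693 genes with a read in any cell. The median gene of the set was detected in 16 cells, against 9 cells for the median of those 10693 genes. Among the 22 gene-rich cells, 22 of the 35 genes were detected in at least 11, against a background of 38.6% of genes. With detection at 50 CPM the number of genes found in 17 cells was 12. After thinning each cell to 40000 reads 16 genes were found in at least 50% of the 30 cells deep enough. No share over all genes is given at either setting, so these numbers do not show an excess over background there.

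**Figure D1:**
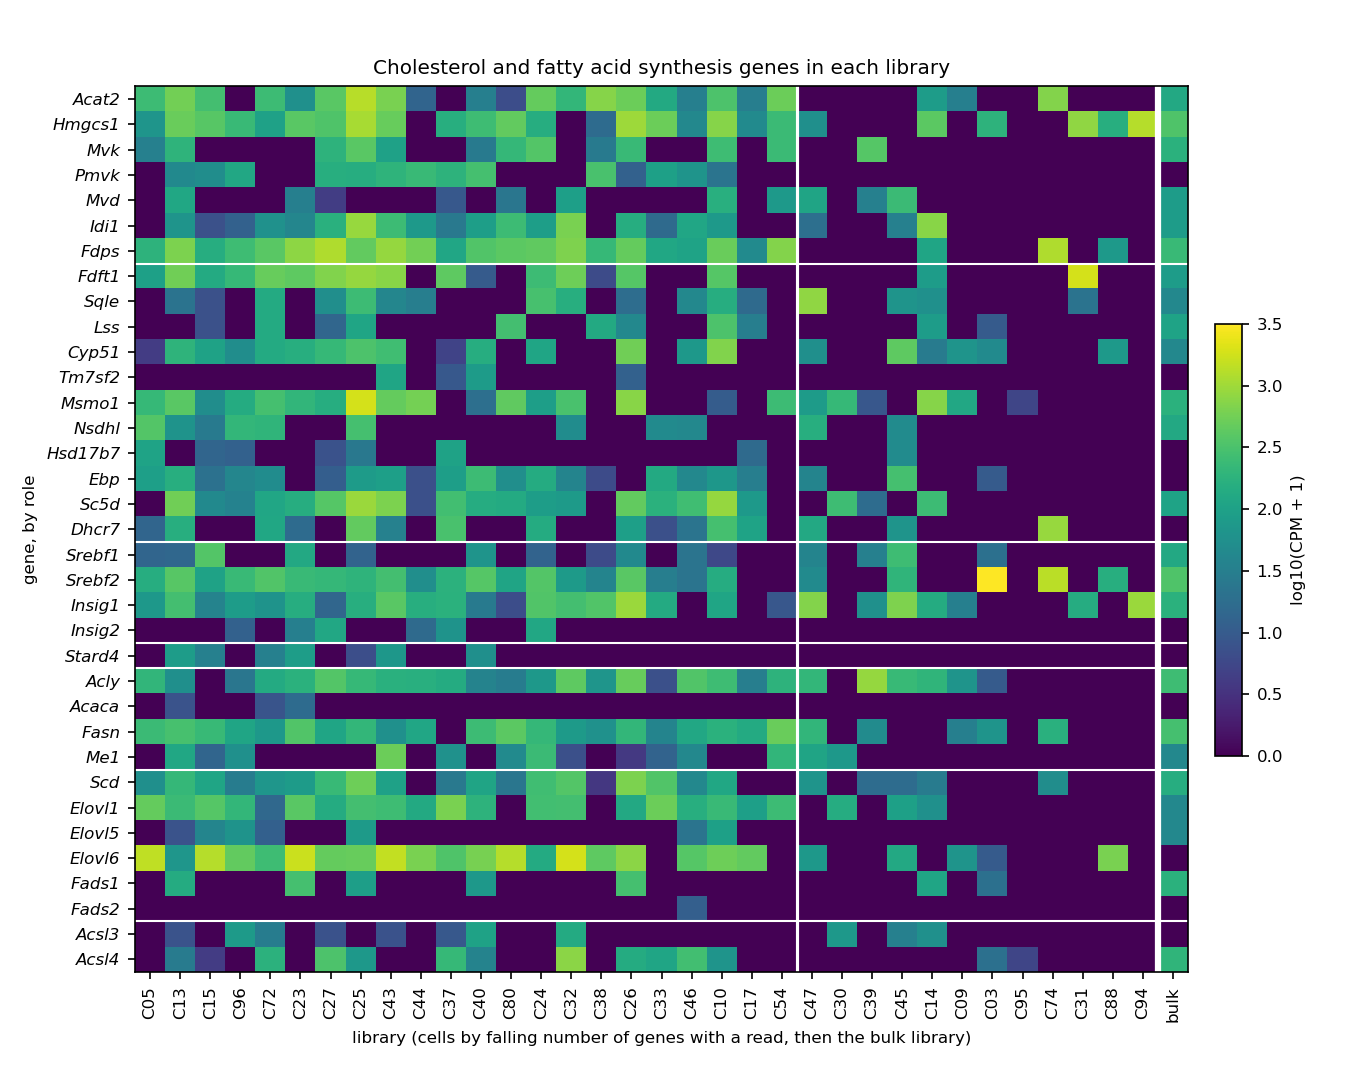
Level of each of the 35 genes as log10(CPM + 1), in rows ordered by role with white lines between roles, and in columns the 34 cells by falling number of genes with a read, then the bulk library. The white line within the cells separates the 22 gene-rich cells on the left from the 12 gene-poor cells, where most genes show no read.

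The mevalonate pathway turns acetyl-CoA into farnesyl diphosphate. Acat2, the cytosolic thiolase that joins acetyl-CoA units, was detected in 23 cells, with a lowest value of 0, a median of 43.5 and a highest of 1325 CPM, against 127 CPM in bulk. Hmgcs1 encodes the cytosolic HMG-CoA synthase. It was detected in 26 cells (76.5%, exact interval 58.8% to 89.3%), from 0 to 1272 CPM with a median of 170.5, against 340 CPM in bulk. The highest value was 8 reads in C94, a cell of 6288 reads. Idi1, the isopentenyl diphosphate isomerase, was detected in 21 cells, with 0 to 914 CPM and a median of 21.5, against 84.9 CPM in bulk. Fdps, the farnesyl diphosphate synthase, was detected in 25 cells, including all 22 gene-rich cells. Its values ran from 0 to 1205 CPM with a median of 200.4 over all cells, against 233 CPM in bulk. The bulk value of each of these 4 genes lay inside the range of the cells. With ranges this wide and starting at 0, that says little about likeness to bulk.

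The enzymes between mevalonate and the isoprenoid units were detected in fewer than 17 cells each. These were Mvk, mevalonate kinase (13 cells), Pmvk, phosphomevalonate kinase (14 cells), and Mvd, the decarboxylase that follows (10 cells). Pmvk was detected in 14 of 22 gene-rich cells and in 0 of 12 gene-poor cells, and it had no bulk read. Mvk averaged 77.9 ± 127 CPM in the cells (SD, n = 34 cells), against 170 CPM in bulk from 8 reads.

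Of the 11 sterol enzymes, 6 were detected in at least 17 cells. Fdft1, squalene synthase, the first step given over to sterols, was detected in 18 cells with 0 to 1886 CPM and a median of 7.15, against 84.9 CPM in bulk. Its highest value was in C31, a cell with 1360 genes, and its mean was 241 CPM with that cell and 191 CPM without it. Sqle encodes squalene epoxidase, an early oxygen-dependent step. It was detected in 17 cells with 0 to 831 CPM and a median of 3.23, against 42.4 CPM in bulk. Its mean was 64.3 CPM with C47, its highest cell, and 41.1 CPM without it. Cyp51, the lanosterol demethylase, was detected in 19 cells at 0 to 682 CPM with a median of 48.6, against 42.4 CPM in bulk. Msmo1 encodes the methylsterol monooxygenase. It was detected in 22 cells at 0 to 1870 CPM with a median of 86.9, against 170 CPM in bulk. Sc5d, the lathosterol desaturase, was detected in 22 cells with 0 to 929 CPM and a median of 78.6, against 106 CPM in bulk. Ebp, the sterol isomerase, was also detected in 22 cells, with 0 to 291 CPM and a median of 25.1, and had no bulk read.

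The remaining sterol enzymes did not reach 17 cells. Dhcr7, the 7-dehydrocholesterol reductase of the last step, was detected in 16 cells, Lss, the lanosterol synthase that closes the ring, in 11, and Nsdhl, a sterol dehydrogenase, in 11. Hsd17b7, which encodes the 3-ketosterol reductase, was detected in 8 cells. Tm7sf2, a sterol reductase, was detected in 4 cells, and its mean of 6.27 CPM was 3.05 CPM without C43. Dhcr7, Hsd17b7 and Tm7sf2 had no bulk read, which allows up to 63.7 CPM at 3 reads.

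The 4 regulators are a pair of SREBP genes and a pair of INSIG genes. Srebf2, which encodes SREBP-2, was detected in 25 cells with 0 to 3460 CPM and a median of 128, against 340 CPM in bulk. The highest value was in the gene-poor cell C03, and the mean of 270 CPM was 173 CPM without it, while no gene-rich cell exceeded 406 CPM. Srebf1 encodes the SREBP-1 forms. It was detected in 14 cells with 0 to 368 CPM and a median of 0, against 127 CPM in bulk, and its mean was 30.3 CPM with C15 and 20.04 CPM without it. Insig1, an INSIG gene that is itself an SREBP target, was detected in 27 cells with 0 to 954 CPM and a median of 99.7, against 170 CPM in bulk. Its highest value was 6 reads in C94, a cell of 6288 reads. Insig2 was detected in 6 cells, all gene-rich, with 0 to 124 CPM and no bulk read. Stard4, a soluble sterol carrier, was detected in 7 cells, all gene-rich, and also had no bulk read.

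In the fatty acid route, Acly and Fasn were found in most cells and Acaca in few. Acly makes acetyl-CoA from citrate. It was detected in 27 cells (79.4%, exact interval 62.1% to 91.3%), at 0 to 886 CPM with a median of 104, against 255 CPM in bulk. Fasn, fatty acid synthase, was detected in 26 cells at 0 to 497 CPM with a median of 114, against 297 CPM in bulk. Acaca encodes acetyl-CoA carboxylase, the committed step between them, and had 8 reads in all, spread over 3 gene-rich cells, and 0 in bulk. The record matched to Acaca is 1 transcript record, and reads of other transcripts of the gene were not analysed here. Me1, the malic enzyme that supplies NADPH, was detected in 13 cells at 0 to 511 CPM, against 42.4 CPM in bulk.

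Among desaturases and elongases, Scd, Elovl1 and Elovl6 were detected in at least 17 cells. Scd, a stearoyl-CoA desaturase, was detected in 23 cells with 0 to 646 CPM and a median of 35.2, against 149 CPM in bulk. Elovl1, an elongase of very long saturated chains, was detected in 23 cells at 0 to 634 CPM with a median of 136, against 42.4 CPM in bulk. Elovl6, which extends palmitate, was detected in 25 cells at 0 to 1891 CPM with a median of 360, and had no bulk read. The enzymes of polyunsaturated chains were found in few cells: the elongase Elovl5 in 7, the desaturase Fads1 in 7 and the desaturase Fads2 in 1, with a single read in C46. Acyl-CoA synthetases Acsl3 and Acsl4, which activate fatty acids, were detected in 11 and 12 cells.

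Summed over the 18 mevalonate and sterol enzymes, a cell held 4.44 CPM (C95) to 9553 CPM (C25), with a median of 1615 and a mean of 2159 ± 1888 CPM (SD, n = 34 cells), against 1719 CPM in bulk (81 reads, interval 1365 to 2137). The 12 fatty acid enzymes summed to 0 to 3961 CPM per cell, with a median of 1030 and a mean of 1190 ± 946 CPM, against 1188 CPM in bulk (56 reads, interval 898 to 1543). Both bulk sums lay within the range of the cells, which is so wide that this says little. In either case 15 cells were above the bulk sum and 19 below. C25 held 16 of the 18 sterol enzymes at 5 CPM or more and C95 held none. C95 had 450250 reads but was gene-poor, with 1642 genes with a read.

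Gene-poor cells held fewer of these genes. The gene-rich cells held 11 to 30 of the 35 genes (median 22), and the gene-poor cells 0 to 17 (median 6.5). The summed fatty acid level was 549 to 3961 CPM in the gene-rich cells (median 1417) and 0 to 950 CPM in the gene-poor cells (median 255). For the sterol enzymes the ranges overlapped more, at 400 to 9553 CPM (median 2146) and 4.44 to 2810 CPM (median 845). The ribosomal RNA record Rn45s took 0.434% to 1.75% of the reads in gene-rich cells and 1.51% to 14.7% in gene-poor cells. Its part in the result was not tested. The gene-rich cells with the lowest summed sterol levels were C17 (400 CPM) and C46 (839 CPM), both of which held Col1a2. Their summed hypoblast marker levels were 738 and 724 CPM, against a median of 14183 CPM over the gene-rich cells. They also had the fewest reads of the gene-rich cells (65038 and 95359, against a median of 304620). Depth and cell type cannot be told apart in C17 and C46, and their part was not tested.

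**Figure D2:**
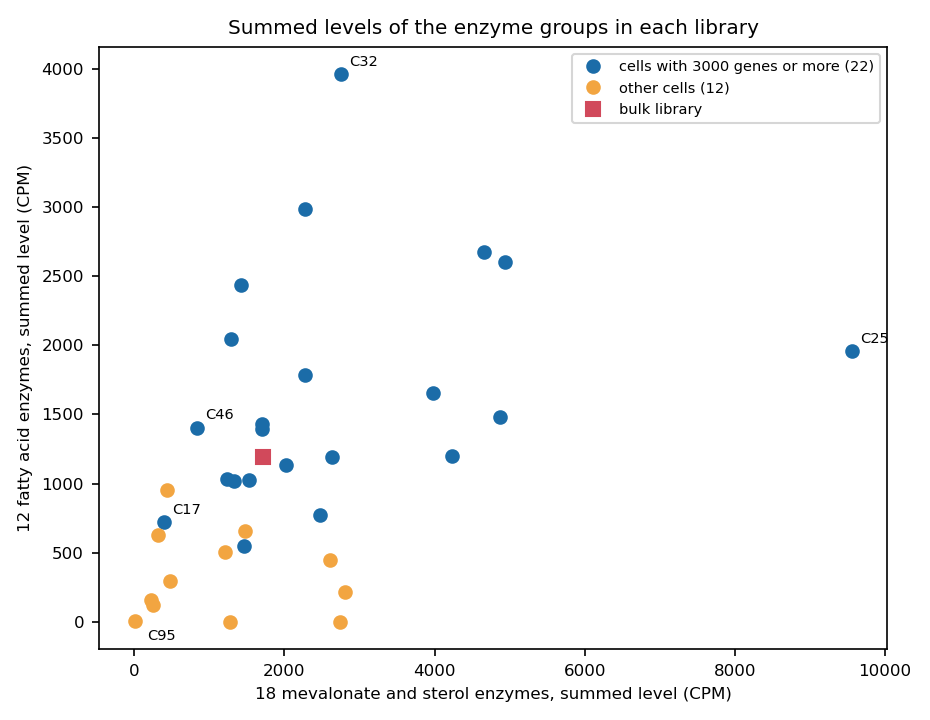
Summed level of the 18 mevalonate and sterol enzymes (x axis, CPM) and of the 12 fatty acid enzymes (y axis, CPM) in each library, with gene-rich cells, gene-poor cells and the bulk library in different colours. C25 lies far to the right at 9553 CPM, C32 is highest on the y axis at 3961 CPM, and the bulk library sits among the cells.

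Within the gene-rich cells, sterol enzymes varied together from cell to cell. This was measured as Spearman's rho of CPM over 22 cells for the 10 mevalonate and sterol enzymes detected in at least 17 of the 34 cells. The cells counted as a single sample and their depth differs, so the values are descriptions and carry no test. The median rho of the 45 pairs was 0.39, against 0.02 for all pairs among the 2924 genes detected in at least 17 cells. A rho of 0.4 or more was reached by 21 of the 45 pairs, against a background of 4.58% of pairs. Cyp51 with Sc5d (0.76), Hmgcs1 with Sc5d (0.71), Fdft1 with Cyp51 (0.70), and Fdps with Msmo1 and Hmgcs1 with Cyp51 (0.65 each) were the 5 closest pairs. Ebp was the exception: it reached 0.4 with none of the other 9, and its values ran from -0.23 with Fdps to 0.34 with Sc5d. Over the gene-rich cells the median of the 45 pairs was 0.38 after thinning to 40000 reads and 0.32 without C25, while the median over all pairs after thinning was 0.01. Over all 34 cells it was 0.41, but there the median over all pairs was 0.21.

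Fatty acid enzymes had lower values among themselves in the gene-rich cells. The 5 detected in at least 17 cells (Acly, Fasn, Scd, Elovl1 and Elovl6) formed 10 pairs with a median rho of 0.09 and a highest value of 0.34, between Scd and Elovl1. The difference between both groups of pairs was not tested, and over all 34 cells it was absent from the medians, which were 0.42 for the fatty acid pairs, 0.41 for the sterol pairs and 0.21 for all pairs. Scd varied with the sterol enzymes: its rho with the 10 was 0.25 to 0.60 (median 0.53), and 7 of the 10 were at 0.4 or more. Acly had a median of 0.36 with the same 10, and Fasn (0.02), Elovl1 (0.03) and Elovl6 (0.09) had medians near that of all pairs. The summed sterol and summed fatty acid levels had a rho of 0.47 over the 22 gene-rich cells.

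**Figure D3:**
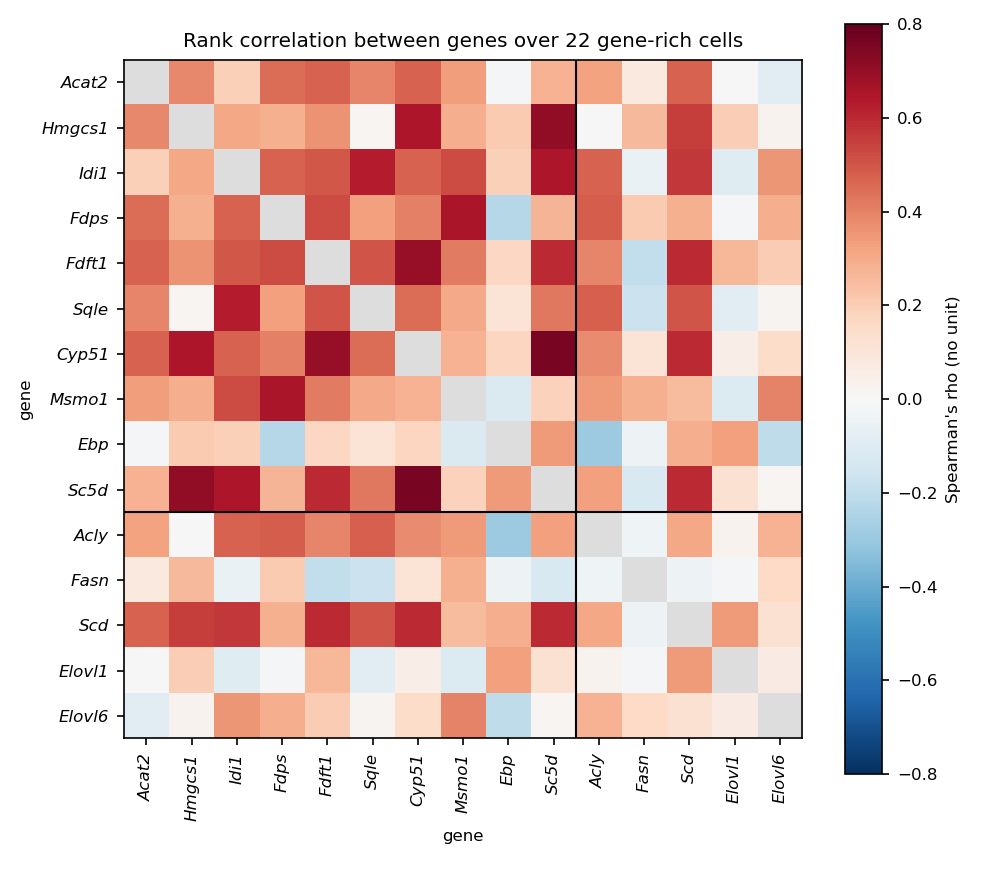
Spearman's rho over the 22 gene-rich cells for each pair of the 15 synthesis enzymes detected in at least 17 cells, with lines separating the 10 mevalonate and sterol enzymes from the 5 fatty acid enzymes and the diagonal in grey. The sterol block is mostly positive (42 of 45 pairs above 0), the Ebp row is pale, and the Scd row resembles the sterol block more than the fatty acid block.

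Likeness to the whole sterol route was then measured as the rho of each gene with the summed sterol level, leaving a gene's own reads out of the sum. Of the 10 sterol enzymes, 9 reached 0.4, with values from 0.42 for Acat2 to 0.67 for Cyp51, and Ebp had 0.08. The background was 4.39% of the other 2914 genes detected in at least 17 cells, whose median rho was 0.02. Srebf2 (0.58), Scd (0.55), Acly (0.52) and Insig1 (0.51) also exceeded 0.4, while Elovl6 (0.21), Fasn (0.08) and Elovl1 (0.00) did not. The summed sterol level had a rho of 0.38 with total reads, 0.12 with the number of genes with a read and 0.61 with the summed level of the 11 hypoblast markers. The last was 0.48 without the cells with Col1a2. The part of depth and of the marker level in the result was not tested.

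**Figure D4:**
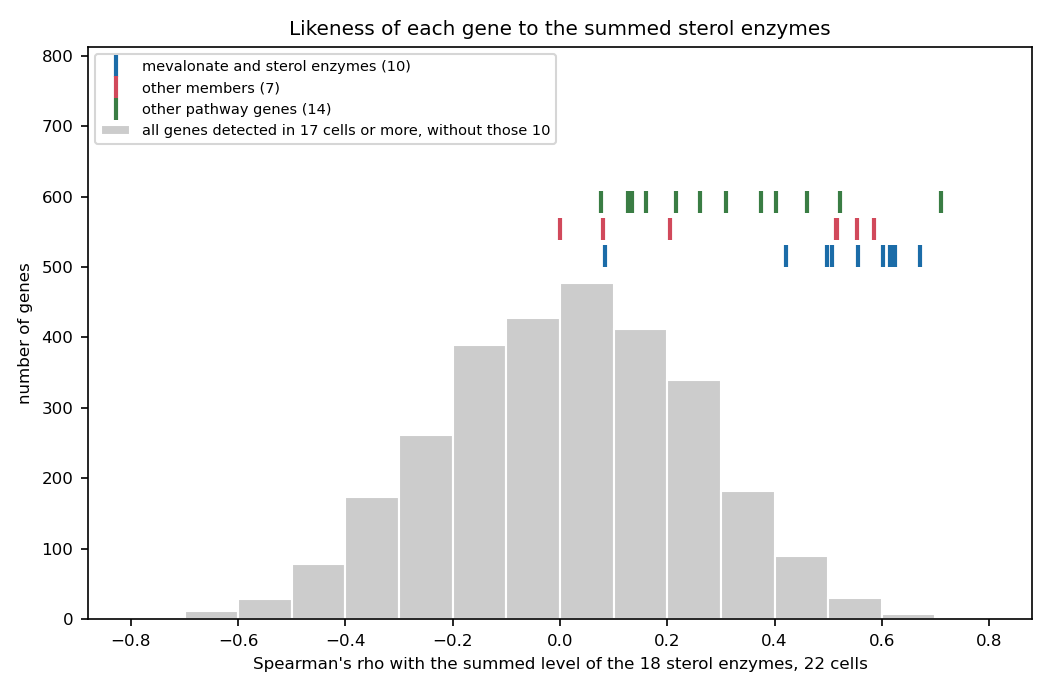
Spearman's rho of each gene with the summed level of the sterol enzymes over 22 gene-rich cells (x axis), with grey bars for the number of genes per step of 0.1 among 2914 genes (y axis). Coloured ticks above the bars mark single genes: 9 of the 10 sterol enzymes lie at 0.42 or more, and Ebp lies at 0.08.

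The promoters of the 35 genes were read for motifs that are known from sterol-regulated genes in mammals. NF-Y, which binds CCAAT boxes, is a known partner of SREBP. RefSeq promoters of the GRCr8 build, running from 250 bases before to 50 bases after a start, were matched for 28 of the 35 genes, with 29 sequences since Srebf1 has a pair of them. The letters CCAAT, on either strand, occurred in 21 of the 29 promoters (72.4%), against 37.5% of all 33469 promoters and 40.3% of the 2481 promoters of genes detected in at least 17 cells. The share was 12 of 15 for the mevalonate and sterol enzymes and 4 of 9 for the fatty acid enzymes. The letters TCACNCCAC, the core of a sterol response element, occurred on either strand in none of the 29 and in 1.12% of all promoters. The E-box letters CACGTG, which read the same on both strands, occurred in 3 of the 29 (10.3%: Insig1, Sc5d and Elovl5). They occurred in 6.42% of all promoters and in 272 of the 2481 promoters of genes detected in at least 17 cells. Against those detected genes the share in the 29 was not raised. The letters of CCAAT and CACGTG cannot overlap, and TCACNCCAC, which can share end bases with either, had no match. A match is a description of letters and not of a bound site. Of the 10 sterol enzymes above, 8 had a promoter and 6 of these held a CCAAT box, and their stretches around the boxes are shown to set their letters side by side, with Ebp, whose level did not follow the others, among them. The bases are written from 5′ to 3′ on the gene's strand, with capitals for CCAAT or its reverse complement ATTGG.
Hmgcs1, GRCr8 chr2:53382096-53382195, plus strand: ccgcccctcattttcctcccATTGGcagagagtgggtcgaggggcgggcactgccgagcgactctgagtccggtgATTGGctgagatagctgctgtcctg
Idi1, GRCr8 chr17:66547535-66547610, minus strand: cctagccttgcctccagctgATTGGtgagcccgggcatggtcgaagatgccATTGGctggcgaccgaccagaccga
Fdps, GRCr8 chr2:176804877-176804966, minus strand: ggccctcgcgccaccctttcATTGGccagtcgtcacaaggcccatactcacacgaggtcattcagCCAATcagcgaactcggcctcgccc
Msmo1, GRCr8 chr16:29746920-29747069, plus strand: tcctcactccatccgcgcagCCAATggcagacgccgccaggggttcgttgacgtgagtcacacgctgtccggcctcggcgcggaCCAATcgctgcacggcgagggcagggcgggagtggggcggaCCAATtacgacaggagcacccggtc
Ebp, GRCr8 chrX:16971327-16971401, plus strand: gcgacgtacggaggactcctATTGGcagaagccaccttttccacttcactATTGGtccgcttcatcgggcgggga
Sc5d, GRCr8 chr8:51538340-51538384, minus strand: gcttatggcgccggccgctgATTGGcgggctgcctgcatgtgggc

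Msmo1 held 3 boxes, Hmgcs1, Idi1, Fdps and Ebp held 2 each and Sc5d held 1. Ebp held as many boxes as Hmgcs1. Cyp51 and Acat2, which reached a rho of 0.4 with 7 and 3 of the others, held none in this window.

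The cells were then compared with the bulk library, which asks whether single cells give the levels of the population. Genes were compared where the mean of both levels was at least 50 CPM, and a gene with no bulk read was set against the floor of 3 reads. Of the 35 genes, 23 could be compared, and for the other 12 the mean of both levels was under 50 CPM. Dhcr7 (84.5 CPM in the cells), Pmvk (56.6 CPM) and Ebp (51.2 CPM) were among those 12, each with no bulk read. The cells were at least 2-fold higher than bulk for 4 of the 23 genes, against a background of 19.9% of 3441 genes, and at least 2-fold lower for 8 genes, against 31%. On the log2 scale the median ratio was -0.19 for the 23 genes and -0.23 for all 3441. The split of 4 higher and 8 lower depended on the scaling, being 6 and 6 with TMM factors (23.5% of all genes higher and 26.7% lower) and 11 and 3 with DESeq2 size factors (37.8% of all genes higher and 17.9% lower). The median of all 3441 genes shifted as well, to -0.05 and 0.47, and the median of the 23 genes lay 0.04 above that of all genes with library totals, 0.28 with TMM and 0.25 with DESeq2.

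The 4 genes with the higher level in the cells kept that call with TMM, with DESeq2 size factors, with the gene-rich cells alone and with totals without Rn45s. Taking the median over cells in place of their mean, Elovl6 and Elovl1 kept it, while Fdft1 was lower in the cells than in bulk (7.15 CPM in the cells, 84.9 CPM in bulk) and Cyp51 was within 2-fold (48.6 CPM in the cells, 42.4 CPM in bulk). Elovl6 averaged 470 ± 551 CPM in the cells (SD, n = 34 cells), against no bulk read, a level at least 7.39-fold higher in the cells than the floor. Of the 34 cells, 24 held Elovl6 at 50 CPM or more. Elovl1 averaged 164 ± 170 CPM in the cells, against 42.4 CPM in bulk, a 3.86-fold higher level. The bulk value rests on 2 reads, and the interval of the ratio runs from 1.07 to 31.9. Such intervals take bulk reads as independent, but 79.9% of nonzero bulk counts were even, so they may be too narrow. A lower limit close to 1 therefore does not settle a difference. Fdft1 averaged 241 ± 390 CPM, against 84.9 CPM in bulk, 2.84-fold higher in the cells (interval 1.11 to 10.4). Cyp51 averaged 110 ± 167 CPM, against 42.4 CPM in bulk, 2.58-fold higher (interval 0.714 to 21.3). The interval for Cyp51 includes no difference.

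Of the 8 genes with the lower level in the cells, Fads1, Srebf1 and Mvd kept that call under the same 4 settings. Fads1 averaged 30.01 ± 75.3 CPM in the cells, against 170 CPM in bulk, 5.66-fold lower in the cells (interval 2.44 to 11.1). Srebf1 averaged 30.3 ± 77.3 CPM in the cells, against 127 CPM in bulk, 4.21-fold lower (interval 1.54 to 9.15). Mvd averaged 26.6 ± 56.4 CPM, against 84.9 CPM in bulk, 3.20-fold lower, with an interval of 0.871 to 8.18 that includes no difference. Lss and Nsdhl lost the call with DESeq2 size factors alone of the 4 settings. Acsl4 lost it with DESeq2 size factors and with the gene-rich cells. Mvk and Fasn lost it with TMM, with DESeq2 size factors and with the gene-rich cells. Fasn averaged 133 ± 128 CPM in all the cells, against 297 CPM in bulk from 14 reads, 2.24-fold lower (interval 1.23 to 3.76).

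The other 11 genes compared were within 2-fold of bulk, among them Hmgcs1 (298 ± 342 CPM in the cells, 340 CPM in bulk), Fdps (326 ± 345 CPM in the cells, 233 CPM in bulk) and Insig1 (191 ± 261 CPM in the cells, 170 CPM in bulk). Their log2 ratios ran from -0.74 for Acly to 0.81 for Acat2. The sign changed between scalings for Hmgcs1 and Srebf2, and for Scd also with the gene-rich cells alone.

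**Figure D5:**
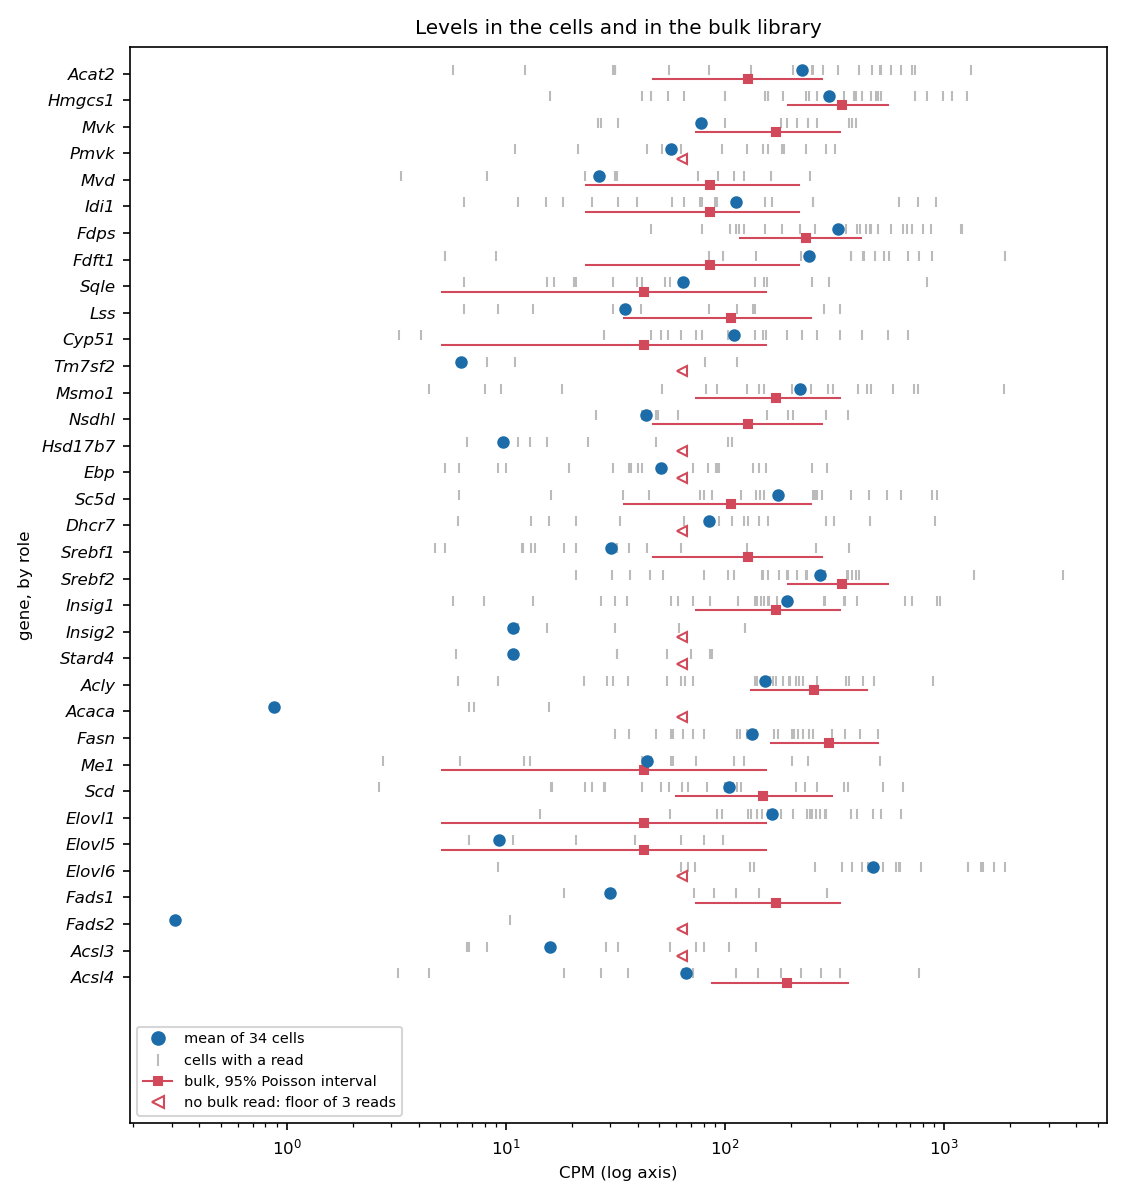
Level of each of the 35 genes on a log axis of CPM, with the mean of 34 cells as a blue circle, each cell with a read as a grey tick, and the bulk value as a red square with its exact 95% Poisson interval, or an open triangle at the floor of 3 reads where bulk had none. Elovl6 stands at 470 CPM in the cells with no bulk read, and Fads1 lies to the left of its bulk value (30.01 CPM in the cells, 170 CPM in bulk).

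Other genes of these pathways, taken from a list of 47 named by function, put the 35 in context. The table held 44 of them, of which 14 were detected in at least 17 cells and 9 had no read in any cell. The background was 27.3% of the 10693 genes with a read in any cell, which leaves out genes without a read. Scd2, the paralog of Scd, was detected in 32 cells at 0 to 18902 CPM with a median of 561, against 1931 CPM in bulk from 91 reads. The highest value was in C88, a cell of 12750 reads, and the mean of 1478 CPM was 950 CPM without it. Scd2 had the highest rho with the summed sterol level of all 2924 genes (0.71). Scd and Scd2 are close paralogs, and the sources used here do not say how reads shared by both were counted.

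Npc2, a lysosomal cholesterol carrier, was detected in 24 cells, and Npc1, its membrane partner, in 17, all gene-rich. Their rho with the summed sterol level was 0.52 and 0.40, and that of Ggps1, which makes geranylgeranyl diphosphate, was 0.46. Soat1, which esterifies cholesterol, was detected in 19 cells. Partners of the sterol enzymes were detected in 18 cells for Por (the reductase that feeds Cyp51 and Sqle), Pgrmc1 and Erg28, and in 20 cells for Cyb5r3, whose mean of 171 CPM in the cells stood against 976 CPM in bulk from 46 reads, 5.72-fold lower in the cells (interval 4.19 to 7.64). Mbtps1, which encodes the protease that makes the first cut in SREBP, was detected in 18 cells. The elongation partners Tecr and Hsd17b12 were each detected in 24 cells, and Dbi, an acyl-CoA binding protein, in 25. With fewer than 17 cells were Scap (9), Mbtps2 (5), Acsl1 (10), Acsl5 (14) and Slc25a1 (14). Elovl2, Elovl3, Elovl4 and Elovl7, the other elongase genes on the list, had 0 reads in every library, as did Acacb and Thrsp.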

How the data were processed

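The authors deposited raw read counts for RefSeq transcript records of 34 single-cell libraries and 1 bulk library. TopHat2 and the genome build rn5 are named per the submitters' processing notes. The counter is not given in the sources used here. The annotation and the treatment of reads shared by genes are not stated either. The labels name no molecular identifiers. Even numbers made up 59.8% to 72.6% of nonzero counts in cells and 79.9% in bulk. The exact 95% intervals (Clopper-Pearson for shares, Poisson for reads) and floors cover counting error only. The Poisson intervals take reads as independent, and with so many even counts they may be too narrow. Of 17201 records, 16215 matched a symbol in RefSeq's GRCr8 table, and the other 986 stayed in the totals. Records of 1 symbol were summed and scaled to CPM of library totals. The ratio to bulk takes the mean of 34 cells, with a count of 0 set to 3 reads and the cells' mean held fixed in intervals. No test was run, since each group is 1 sample. No doublet caller was run and no cell was removed. A per-length level was planned and not computed. Code was checked on simulated data. Scripts used Python 3.11.15, pandas 2.3.3, scipy 1.17.1, edgeR 4.0.16 (TMM) and DESeq2 1.42.0 (size factors, poscounts). All 35 genes are named, and of the other pathway genes those detected in 17 cells or with 10 bulk reads. The few others were named after their values were seen. A few genes of that list are counted but not reported here by name. Genes, lists and motifs were chosen with earlier results of these data known.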

Additional observations from a re-analysis of the deposited data

How the results depend on the processing

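No paired analysis was possible because each group is 1 sample and the labels give no shared replicate numbers. The number of genes detected in at least 17 cells (17) stayed between 12 and 22 in all 5 alternatives run. Taking each gene's median across cells, the genes at least 2-fold higher and lower than bulk numbered 2 and 15, in place of 4 and 8, beside 5.03% and 67.4% of all genes, and their median log2 ratio was -1.55, by construction a lower level for genes with a read in few cells. With DESeq2 size factors the numbers were 11 and 3 and the median turned to 0.72. With TMM factors the median turned to 0.23. With gene-rich cells alone 6 genes were higher and 5 lower, beside 18.4% and 28.8% of all genes. The median turned to 0.023, beside -0.18 for all genes. With the minimum level raised to 200 CPM, 6 genes were left, of which 1 was higher and 1 lower, beside 18.1% and 24.1% of all genes. The cause of these turns was not tested. Both rank correlations moved by less than 0.1 in all their alternatives. The summed levels moved by less than the SD between cells. That SD is a wide limit, at 1888 CPM for the sterol and 946 CPM for the fatty acid enzymes. With gene-rich cells alone their medians were 2146 and 1417 CPM, in place of 1615 and 1030 CPM. Leaving out the cells with Col1a2, totals without Rn45s, leaving out C25 and size factors for correlations were chosen after the results were seen. Means leaned by over 1.5 times on 1 cell for Sqle, Tm7sf2, Srebf1, Srebf2, Acaca and Fads2. The bulk depth limits every ratio to bulk.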

Other observations

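Outside the pathway lists, the genes whose values over the 22 gene-rich cells were most like the summed sterol level were Lpcat3, which encodes a phospholipid-remodelling acyltransferase (rho 0.69), Ndufa2, a subunit of respiratory complex I (0.69), Gata6, a transcription factor of the hypoblast (0.68), and B3galnt1, a glycosyltransferase gene (0.68). They were picked after their values were seen from 2924 genes, and nothing about shared control follows from these values.

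Some cells with few genes held high levels of single genes of the set. C31, with 1360 genes, held 3 of the 18 sterol enzymes and none of the 12 fatty acid enzymes. C94, with 349 genes and 6288 reads, held Hmgcs1 (8 reads) and Insig1 (6 reads) alone of the 35 genes.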
